A study of Rattus norvegicus with 23 samples.

Results

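The genes of striated muscle described here are 44 named genes of the contractile apparatus, the calcium store and the energy supply of heart and skeletal muscle, read in RNA from rat lung. They were taken by gene symbol from the annotation carried in the scanner output of an Agilent rat gene expression array, and 43 of the 44 had at least 1 probe under that name. All 43 passed the filter on dim probes, out of 23060 genes tested and 25597 gene symbols on the array. Ryr1, the calcium release channel of skeletal muscle, was the member without a probe: the probe that older annotation assigned to it now carries a transcript identifier in place of that name.

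RNA was taken from the accessory lobe of the lung of male Fisher F344 rats that were 19 months old, described as elderly. Control rats breathed filtered air, and exposed rats breathed an aerosol of TiO2 P25 nanoparticles at 10 mg/m3, by nose-only inhalation over 4 weeks, on 5 days of each week and for 6 h on each day. Lungs were collected directly after the last exposure (D0) or 28 days later (D28). There were 6 control arrays at D0, 5 exposed arrays at D0, 6 control arrays at D28 and 6 exposed arrays at D28, and a sixth exposed array at D0 was not analysed here. For the D28 exposed arrays one label reads day 0, and the sample titles, which give D28, were used.

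Striated muscle contracts through sarcomeres, in which myosin heavy and light chains pull on actin filaments gated by the troponin complex, while the ryanodine receptor, calsequestrin and the calcium pump release and recover calcium. Many of these proteins exist as isoforms from separate genes, so that a heart chamber, a slow skeletal fibre and a fast skeletal fibre each use a different set. In rodents a sleeve of cardiac muscle extends along the pulmonary veins into the lung, and it carries the atrial isoforms. Skeletal muscle such as the diaphragm lies next to the lung and is not part of it. The members were therefore grouped as cardiac, fast skeletal, slow skeletal, shared by heart and slow skeletal muscle, and shared by all striated muscle.

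The 75th percentile of the signal ranged from 1383 to 3470 between the 23 arrays, and the scanner software marked 69.5% to 77.9% of probes as well above background. The arrays lay on 5 slides, 4 of which held more than 1 array. Of 10 lung epithelial markers, all 10 were well above background on all 23 arrays, so the labelled tissue was borne out. Control D0 replicate 5, exposed D28 replicate 1 and, less far, control D0 replicate 3 stood apart in fast skeletal muscle genes, as set out below. The median log2 FC of the cardiac and fast skeletal classes are given with and without them. Nothing in the labels says how the animals were allotted to slides, and p-values measure the spread between these samples.

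The probes decide which isoform a value stands for, so the sequences of 7 of the 60-base probes that carry the results are shown 5′ to 3′ as printed in the array files, with positions in the rat build rn4 as the files give them. Each of the 7 can be read in at least 1 frame without a stop codon. The first 4 belong to cardiac members and the last 3 to fast skeletal members.
Myl7, chr14:86568278-86568683, minus strand: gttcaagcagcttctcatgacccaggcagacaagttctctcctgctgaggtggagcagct
Myl4, no position given: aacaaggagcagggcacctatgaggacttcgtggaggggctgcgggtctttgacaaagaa
Myh6, chr15:33044576-33044983, minus strand: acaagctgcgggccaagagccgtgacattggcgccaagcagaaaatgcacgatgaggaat
Tnni3, chr1:68030210-68030735, plus strand: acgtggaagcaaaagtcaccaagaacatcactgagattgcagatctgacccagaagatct
Tnnc2, chr3:155807460-155807519, minus strand: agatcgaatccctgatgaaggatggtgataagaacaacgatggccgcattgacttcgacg
Tnnt3, chr1:202758664-202758723, plus strand: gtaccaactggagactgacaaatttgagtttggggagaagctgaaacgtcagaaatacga
Myl1, chr9:65719604-65722502, minus strand: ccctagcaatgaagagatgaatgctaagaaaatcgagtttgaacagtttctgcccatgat
The Myl7, Myh6 and Myl1 probes cover 406, 408 and 2899 bases of the genome with their 60 bases, and the Tnni3 probe likewise covers more than its length, so each of the 4 is split over exons and matches spliced RNA. The Tnnc2 and Tnnt3 probes lie in 1 unbroken stretch.

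Cardiac transcripts were present in every lung. All values below are log2 of the quantile-normalised array signal. They rank arrays within a gene and do not compare one gene with another. Of the 13 cardiac members, 10 were well above background on all 23 arrays: the atrial light chains Myl7 and Myl4, the heavy chain Myh6, cardiac actin Actc1, the troponin subunits Tnnt2 and Tnni3, the myosin-binding protein Mybpc3, the calcium-store proteins Casq2 and Hrc, and phospholamban (Pln), which restrains the cardiac calcium pump. The ryanodine receptor Ryr2 was well above background on 22 arrays, with exposed D0 replicate 4 as the exception. The natriuretic peptide genes, hormones of the atrial wall, were not: Nppa was well above background on 0 arrays and Nppb on 1, so neither is given a fold. Nppa signals ran from 1.68 to 2.88 over all 23 arrays. Of the fast skeletal members, 6 of 11 were well above background on all arrays, and the adult fast heavy chain Myh2 on 11 of 23.

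At D0 the cardiac members were lower in exposed than in control lungs. Of the 10 that were well above background on all arrays, 10 had a log2 FC below 0, with a median of -0.48, where 50.1% of all genes tested lay below 0 with a median of -0.000767. With a DEG defined as an adjusted p under 0.05 by limma over all 23060 genes and an FC of at least 1.5 (0.58 on the log2 scale), 2 of the 43 members were under-expressed, Myl7 and Tcap, and 0 over-expressed, where 1.81% of all genes were called, 1.1% higher and 0.711% lower. At an unadjusted p under 0.05, 21 of 43 members were lower, 10 of them among those 10 cardiac members, against 6.34% of all genes. In a piece of whole lobe, fewer muscle cells, less RNA per muscle cell and more RNA from other cells cannot be told apart.

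Myl7, the regulatory light chain of atrial myosin, gave the clearest difference. In control rats at D0 it ranged from 9.19 to 9.71, with a median of 9.62 (n = 6). In exposed rats at D0 the 5 arrays read 9.29, 8.68, 8.82, 8.86 and 8.87. Replicate 1 reached into the control range and the other 4 lay below every control array. The log2 FC was -0.60 (SE 0.13, 1.52-fold lower, limma adjusted p = 0.00984). At D28 the control arrays ranged from 9.37 to 10.00 with a median of 9.61, and the exposed arrays from 8.83 to 9.26 with a median of 8.97. All 6 exposed arrays lay below all 6 control arrays, a separation that 0.542% of all genes showed in that direction. The log2 FC at D28 was -0.63 (SE 0.12, 1.55-fold lower, limma adjusted p = 0.0107), and its change between D0 and D28, -0.03, had a 95% interval from -0.40 to 0.34.

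Both Myl7 probes moved, by -0.59 and -0.62 at D0 and by -0.75 and -0.52 at D28. Within slides, the exposed mean of Myl7 was below the control mean on 4 of 4 slides at D0, by 0.42 to 0.80, and on 3 of 3 at D28. Each of these means was of only 1 or 2 arrays. Exposed D28 replicate 1 and control D28 replicate 4 had no counterpart on their slides and did not enter. The D0 FC lay close to the limit of 1.5. Its adjusted p stayed between 0.0023 and 0.0420 over 37 alternatives, but in 11 of them the FC fell under 1.5. Among these were the authors' deposited values (-0.51), normexp (-0.45), 75th percentile scaling (-0.57), slide as a block (-0.58) and the replicate block (-0.57). So were those without control D0 replicate 1 (-0.58), 2 (-0.56) or 5 (-0.57) and without exposed D0 replicate 2 (-0.55) or 3 (-0.58). At D28 the call was lost in 4 alternatives. They were the deposited values (-0.54), normexp (-0.49), the one without control D28 replicate 1 (-0.56) and the 2 groups alone (-0.63, adjusted p = 0.0600). With the deposited values Myl7 was thus not called at either time, although its adjusted p stayed under 0.05.

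**Figure D1:**
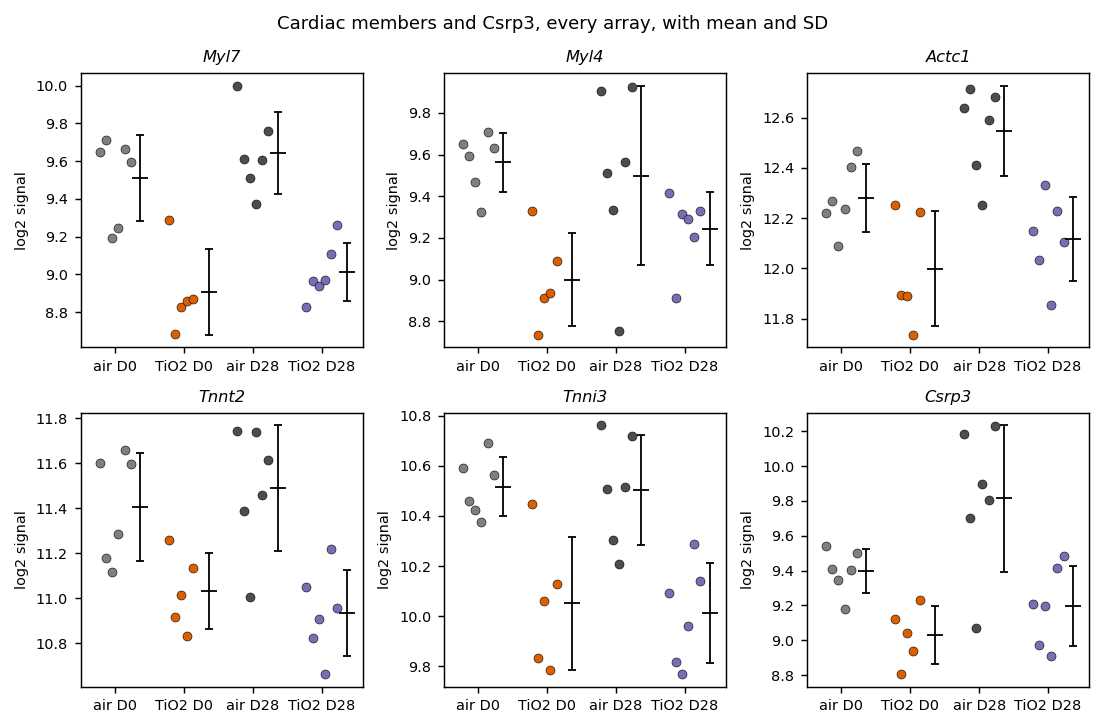
Log2 signal (y axes, quantile-normalised, each panel on its own scale) of 5 cardiac members and Csrp3 on each array, by group (x axis, air standing for control), with each point an array and the bars the mean and SD of the group. For Myl7 the 6 exposed D28 arrays lie between 8.83 and 9.26, below the 6 control D28 arrays at 9.37 to 10.00.

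Of the other members of the cardiac contractile filament, Tnni3, Tnnt2, Actc1, Myl4 and Myh6 also had log2 FC below 0 at both times, and none was called. Tnni3, the inhibitory troponin subunit of heart, read 10.45, 9.83, 10.06, 9.79 and 10.13 in the exposed D0 arrays against 10.37 to 10.69 (median 10.51) in controls. At D28 it ranged from 9.77 to 10.29 (median 10.03) in exposed and from 10.21 to 10.76 (median 10.51) in control rats, with 5 of 6 exposed arrays below every control array. Its log2 FC was -0.47 at D0 (adjusted p = 0.0498) and -0.49 at D28 (SE 0.12, adjusted p = 0.0466), which passed the adjusted p and not the FC limit. With Tnni3 included, 3 members had an adjusted p under 0.05 at any fold at D0, where 2.91% of all genes did, and 5 at D28, where 1.32% did. Tnnt2, the cardiac troponin that anchors the complex to tropomyosin, read 11.26, 10.92, 11.01, 10.83 and 11.14 in exposed D0 rats against 11.11 to 11.66 (median 11.44). At D28 it was 10.66 to 11.22 (median 10.93) in exposed and up to 11.74 (median 11.54) in control rats, with overlapping groups. The D28 log2 FC of Tnnt2 was -0.56 (SE 0.13, adjusted p = 0.0393), and the D0 value was -0.38 with an adjusted p of 0.201.

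Actc1, the actin of heart muscle, ranged from 12.09 to 12.47 (median 12.25) in control D0 rats, and read 12.25, 11.89, 11.89, 11.73 and 12.22 in exposed D0 rats. Exposed replicates 2, 3 and 4 lay below every control array, and 1 and 5 within the control range. The log2 FC at D0 was -0.28 (SE 0.11, adjusted p = 0.258). At D28 control arrays ranged from 12.25 to 12.71 (median 12.61) and exposed arrays from 11.85 to 12.33 (median 12.13), with 5 of 6 exposed arrays below every control. The D28 log2 FC was -0.43 (SE 0.11, adjusted p = 0.0488), under the FC limit. Control rats themselves read 0.27 higher at D28 than at D0, with an adjusted p of 0.280.

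Myl4, the essential light chain of atrial myosin, read 9.33, 8.73, 8.91, 8.94 and 9.09 in exposed D0 rats and 9.32 to 9.71 (median 9.61) in controls. Its log2 FC was -0.56 at D0 (SE 0.16, adjusted p = 0.0682) and -0.25 at D28 (adjusted p = 0.612), where exposed arrays at 8.91 to 9.42 (median 9.30) lay inside the control range of 8.76 to 9.92 (median 9.54). Myh6, the main atrial heavy chain, read 12.12, 11.66, 12.08 and 11.64 on 4 exposed D0 arrays and 11.88 to 12.77 (median 12.34) in controls. The value of exposed D0 replicate 5 was missing after an outlier mark, and the fit dropped it. The log2 FC of Myh6 was -0.43 at D0 (adjusted p = 0.357) and -0.47 at D28 (adjusted p = 0.244), where exposed arrays ran from 11.67 to 12.17 (median 11.87) and controls from 12.06 to 13.01 (median 12.19).

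The cardiac calcium genes were lower at D0 without passing the adjusted test. Casq2, the calcium-binding protein of the cardiac store, read 8.23, 7.80, 8.13, 7.98 and 8.28 in exposed D0 rats and 8.34 to 8.87 (median 8.56) in controls, so that the groups did not overlap. It was the only member without overlap at D0, where 2.37% of all genes were non-overlapping and lower. Its log2 FC was -0.49 (SE 0.14, adjusted p = 0.0719) at D0 and -0.43 (adjusted p = 0.156) at D28. Ryr2 read 6.05, 5.57, 5.45, 4.53 and 4.90 in exposed D0 rats against 5.83 to 6.25 (median 5.92), a log2 FC of -0.68 with an adjusted p of 0.191. At D28 Ryr2 spanned 5.15 to 6.19 (median 5.87) in exposed and 5.20 to 6.30 (median 6.06) in control rats, a log2 FC of -0.06. Hrc, which binds calcium in the same store, was -0.60 at D0 (adjusted p = 0.173) and -0.28 at D28, and Pln was -0.43 and -0.20.

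Mybpc3, which links cardiac myosin to titin, read 6.72, 6.25, 6.18, 5.53 and 5.63 in exposed D0 rats and 6.61 to 6.88 (median 6.67) in controls, a log2 FC of -0.64 (adjusted p = 0.276). At D28 it ran from 5.48 to 6.61 (median 6.06) in exposed and from 4.89 to 6.60 (median 6.26) in control rats, a log2 FC of -0.02. In filtered air it was lower at D28 than at D0 in 6 of 6 arrays, a separation that 0.603% of all genes showed in that direction, with a log2 difference of -0.61 and an adjusted p of 0.301.

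Over all 13 cardiac members the median log2 FC was -0.47 at D0, with 12 lower, and -0.28 at D28, with 13 lower. At D28, 10 of the 10 members above background on all arrays were lower, where 51.1% of all genes lay below 0, and 6 of them were lower at an unadjusted p under 0.05, against 6.18% of all genes. Leaving out control D0 replicate 5 and exposed D28 replicate 1, the arrays with the highest fast skeletal signals, the medians of those 10 were -0.49 at D0 with 10 lower and -0.44 at D28 with 9 lower. They were -0.53 and -0.44 when control D0 replicate 3 was left out as well. No cardiac member passed the test of the change in the TiO2 effect between D0 and D28, or differed with an adjusted p under 0.05 between D28 and D0 in exposed rats or in filtered air.

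**Figure D2:**
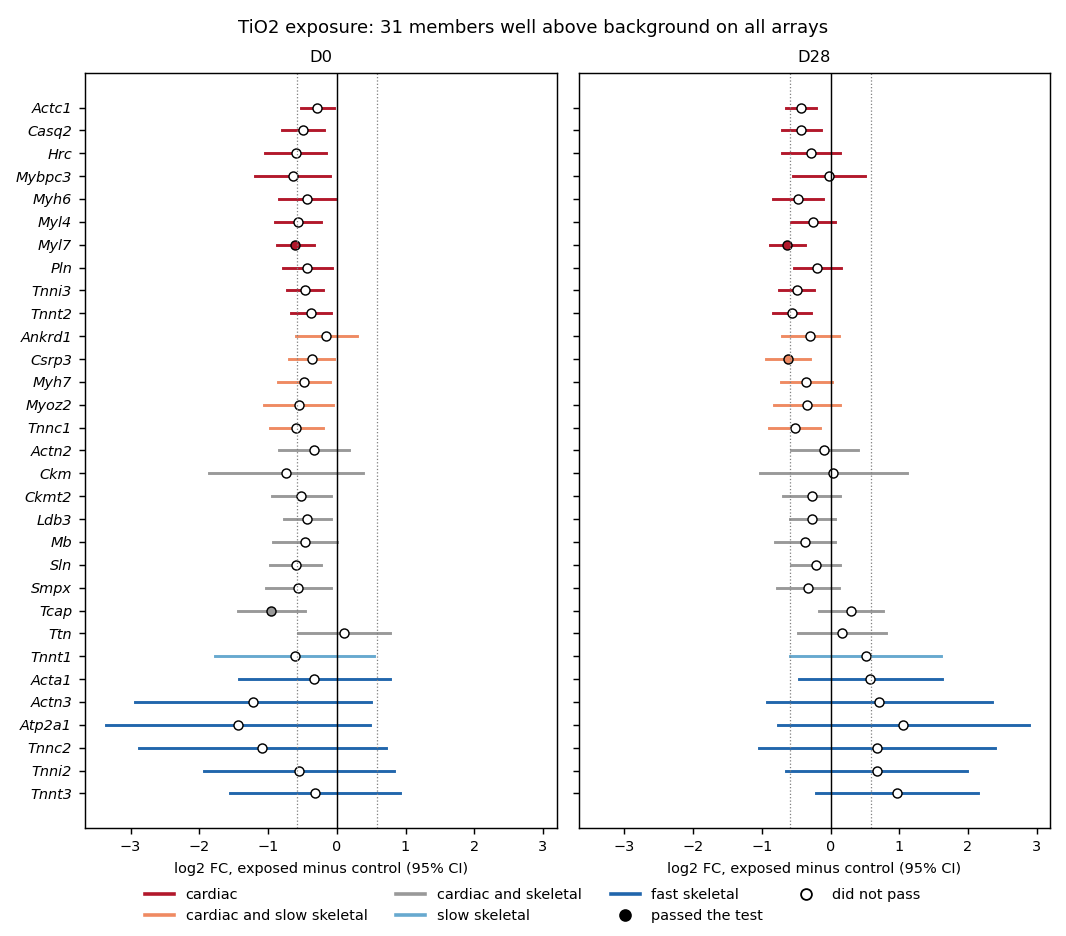
Log2 FC of exposed against control rats (x axis) at D0 and D28 for the 31 members well above background on all 23 arrays (y axis, coloured by class), with 95% intervals from limma, dotted lines at the FC limit of 1.5 and filled points for called members. At D0, 30 of 31 points lie below 0, while at D28 the cardiac members lie below 0 and the fast skeletal members above it with wide intervals.

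Among the members shared with skeletal muscle, Tcap and Csrp3 were called. Tcap encodes telethonin, which caps titin at the Z disc of all striated muscle. In control D0 rats it ranged from 8.96 to 9.90 (median 9.42), and in exposed D0 rats it read 9.06, 8.08, 8.43, 8.40 and 8.35. Replicate 1 overlapped the controls and the other 4 lay below all of them. The log2 FC was -0.95 (SE 0.23, 1.94-fold lower, limma adjusted p = 0.0276).

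The control level of Tcap itself moved. In control D28 rats it ranged from 8.01 to 8.82 (median 8.21), below all 6 control D0 arrays. This difference of -1.11 (SE 0.22, 2.16-fold lower, limma adjusted p = 0.0152) made Tcap the only member called between D28 and D0 in filtered air, where 0.616% of all genes were called and 0.221% were called lower. Exposed D28 arrays ran from 7.77 to 9.26 (median 8.63), and the log2 FC at D28 was 0.29 (SE 0.22, adjusted p = 0.713). The TiO2 effect on Tcap was 1.25 higher at D28 than at D0 (SE 0.32, unadjusted p = 0.000922, adjusted p = 0.415), and 0 members were called by limma for this change (2 higher and 0 lower at an unadjusted p under 0.05), where 0.0304% of all genes were called and 1.56% were higher at that unadjusted p.

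Both Tcap probes were lower at D0, by -1.06 and -0.84. The D0 call was lost without control D0 replicate 1, 2 or 5 (adjusted p = 0.0588, 0.0603 and 0.0711) or exposed D0 replicate 2, 3, 4 or 5 (0.0819, 0.0572, 0.0665 and 0.0682), and its log2 FC then lay between -0.94 and -0.86. It was also lost without the 2 and without the 3 arrays high in skeletal genes, so that 9 of 37 alternatives lost it. The highest Tcap value of all arrays was on control D0 replicate 5. The filtered-air difference kept its call without any single array, and lost it with the brighter of the 2 probes alone (-0.81, adjusted p = 0.0895) and without the 3 arrays high in skeletal genes (-1.05, adjusted p = 0.0662).

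Csrp3, the muscle LIM protein of the Z disc in heart and slow muscle, ranged from 9.07 to 10.23 (median 9.85) in control D28 rats and from 8.91 to 9.48 (median 9.20) in exposed D28 rats. The groups overlapped through control replicate 3, the lowest control array. The log2 FC was -0.62 (SE 0.15, 1.53-fold lower, limma adjusted p = 0.0474), and with Myl7 it made 2 members called at D28, where 0.755% of all genes were called and 0.269% were called lower. At D0 Csrp3 read 9.12, 8.80, 9.04, 8.94 and 9.23 in exposed rats and 9.18 to 9.54 (median 9.41) in controls, a log2 FC of -0.37 with an adjusted p of 0.322. The D28 call was not firm: it was lost in 26 of 37 alternatives, where the adjusted p reached 0.289 with the 2 groups alone and 0.0663 with slide as a block. It was also lost when any 1 array was left out other than exposed D0 replicate 4, control D28 replicate 3 or exposed D28 replicate 6, that is for 20 of the 23 arrays, with a highest adjusted p of 0.106 without exposed D28 replicate 4.

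The other members shared by heart and slow muscle were lower at D0 and did not pass the adjusted test. Tnnc1, the calcium sensor of the cardiac troponin complex, was -0.59 at D0 (adjusted p = 0.101) and -0.52 at D28 (adjusted p = 0.187). Myh7, the slow and ventricular heavy chain, was -0.48 and -0.35, and Ankrd1, a stress-responsive cardiac ankyrin protein, was -0.15 and -0.29. Myoz2, a calcineurin-binding Z disc protein, read 6.42, 6.01, 6.12, 5.37 and 5.92 in exposed D0 rats against 6.28 to 6.78 (median 6.51), and its log2 FC was -0.56 with an adjusted p of 0.327. The ventricular light chain Myl2 read 4.85, 4.01, 3.77, 4.47 and 4.38 in exposed D0 rats and 4.34 to 8.19 (median 5.43) in controls, and at D28 4.73 to 7.67 (median 5.48) in exposed and 4.00 to 6.45 (median 5.68) in control rats. Myl2 was the only member with an unadjusted p under 0.05 between D28 and D0 in exposed rats (1.47 higher, adjusted p = 0.504), a comparison in which 3.82% of all genes were higher at that unadjusted p, and 0 members and 0.356% of all genes were called by limma. The 7.67 was read on exposed D28 replicate 1, an array high in skeletal genes, and this difference without that array is not given here.

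Markers of the pleural surface moved in the same direction as the cardiac members. Of 7 mesothelial genes, all well above background on all 23 arrays, 7 were lower in exposed rats at D0 with a median log2 FC of -0.55, and 7 at D28 with a median of -0.36. Their mean level was 9.41 to 9.62 in control D0 rats, 8.98 to 9.14 in exposed D0 rats, 9.30 to 9.68 in control D28 rats and 8.88 to 9.42 in exposed D28 rats. Lrrn4 (-0.62), Upk1b (-0.65) and Wt1 (-0.62), which mark mesothelium, were DEGs at D0, and 0 of the 7 were called at D28 (6 lower at an unadjusted p under 0.05). Of 11 smooth muscle genes, 10 were lower at D0 with a median of -0.28 and 7 at D28, and 0 were called (5 lower at an unadjusted p under 0.05 at D0). Their mean level was 8.99 to 9.26 in control D0 and 8.76 to 8.95 in exposed D0 rats. The part of these tissues in the cardiac result was not tested.

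A wider list of 45 other cardiac genes was read in the same way. At D0, 38 of 45 were lower with a median log2 FC of -0.32, and Cav3 (-0.60, adjusted p = 0.0363) and Cox8b (-0.79, adjusted p = 0.00433) were among those called. Cav3 is the caveolin of muscle and Cox8b a muscle subunit of cytochrome c oxidase. At D28, 39 of 45 were lower with a median of -0.18. The cardiac regulator Nkx2-5 was among 5 genes of that list that were well above background on no array.

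Fast skeletal muscle genes gave another picture, with high values on single arrays of different groups. Tnnc2, the calcium sensor of fast fibres, read 11.65 on control D0 replicate 5, 11.66 on exposed D28 replicate 1 and 9.15 on control D0 replicate 3, against 5.99 to 7.30 on the other 20 arrays. Atp2a1, the calcium pump of fast fibres, read 11.17, 11.24 and 8.35 on the same arrays, against 5.39 to 7.33. Actn3, the fast-fibre actinin, read 10.01, 10.45 and 7.55, against 4.97 to 6.65. All 3 arrays stood above the other 20 in 8 of the 11 fast skeletal members, in 1 of the 7 members shared by heart and slow muscle and in 0 of the 13 cardiac members.

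The same 3 arrays were above the other 20 in a further 5 fast members. Tnni2, the fast inhibitory troponin, read 11.02, 10.97 and 8.70 on them, against 6.74 to 7.76, and Tnnt3, the fast tropomyosin-binding troponin, 9.83, 9.98 and 7.41, against 5.68 to 7.31. Acta1, skeletal actin, read 10.01, 9.84 and 8.26, against 5.50 to 8.02. Myh1, a fast heavy chain, read 10.26, 10.66 and 7.35, against 1.77 to 5.21, and Myl1, the fast essential light chain, 7.52, 7.65 and 5.21, against 1.72 to 3.86. The 3 members in which control D0 replicate 3 did not stand above the other 20 arrays were Casq1, the calcium-store protein of fast fibres, and the heavy chains Myh2 and Myh4, in which it ranked 10, 10 and 7. Casq1 was highest on control D0 replicate 5 and next on exposed D28 replicate 1, at 4.87, against at most 4.19 on any of the 20. Control D0 replicate 5 and exposed D28 replicate 1 held the top places in 10 of the 11 fast skeletal members, in 15 of all 43 members (34.9%) and in 68 of 23060 genes (0.295%). The arrays were picked for their high fast skeletal values. Counts for that class, here and above, therefore follow in part from the choice and are given as a description. A list of 33 other skeletal muscle genes had its highest means on the same arrays, at 6.91, 6.85 and 6.02 on control D0 replicate 5, exposed D28 replicate 1 and control D0 replicate 3 and 5.58 to 5.90 on the others. Of those 33 genes, Chrng (-0.85, adjusted p = 0.0106) and Myoz1 (-0.68, adjusted p = 0.00555) were called lower in exposed rats at D0, and Mylk2 was called higher at D0 (0.90, adjusted p = 0.00389) and at D28 (0.90, adjusted p = 0.00671). Chrng is a subunit of the fetal muscle acetylcholine receptor, Myoz1 a Z disc protein of fast fibres and Mylk2 the myosin light chain kinase of skeletal muscle.

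**Figure D3:**
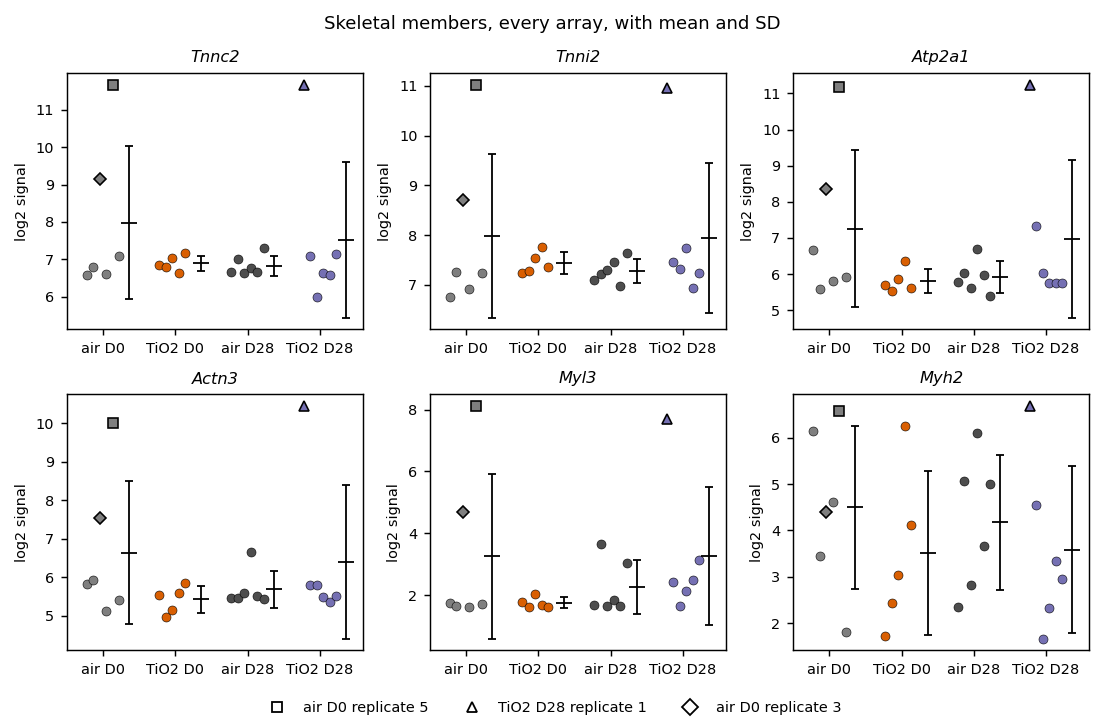
Log2 signal (y axes, each panel on its own scale) of 5 fast skeletal members and Myl3 on each array, by group (x axis, air standing for control), with each point an array and the bars the mean and SD of the group. Control D0 replicate 5 (square) and exposed D28 replicate 1 (triangle) are far above the rest, at 11.65 and 11.66 for Tnnc2 against 5.99 to 7.30 on the arrays other than control D0 replicate 3 (diamond).

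The fast heavy chains Myh2 and Myh4 were also high on other arrays. In control D0 rats Myh2 read from 1.81 to 6.57 (median 4.51) and in exposed D0 rats 1.71, 2.42, 3.03, 6.25 and 4.11. It ranged from 2.35 to 6.10 (median 4.33) in control D28 and from 1.66 to 6.68 (median 3.15) in exposed D28 rats. The highest values were again on exposed D28 replicate 1 and control D0 replicate 5, with exposed D0 replicate 4, control D0 replicate 1 and control D28 replicate 4 close behind, so all 4 groups overlapped over most of their range. The log2 FC was -0.99 at D0 (SE 0.98, adjusted p = 0.862) and -0.59 at D28 (SE 0.93, adjusted p = 0.908). Myh4, another fast heavy chain, was well above background on 5 arrays, and reached 5.71 on control D0 replicate 5, 5.66 on exposed D0 replicate 4 and 5.52 on exposed D28 replicate 1. Its exposed D0 arrays read 2.55, 1.92, 2.87, 5.66 and 1.95.

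No fast skeletal member was called between groups. Among the 6 above background on all arrays, the median log2 FC was -0.82 at D0 and 0.70 at D28, with 6 of 6 lower at D0 and 6 of 6 higher at D28, and 0 were called by limma at either time (0 at an unadjusted p under 0.05, where 6.34% of all genes were lower at D0 and 4.83% higher at D28). In filtered air all 6 were lower at D28 than at D0, with a median of -1.05, and Acta1 alone had an unadjusted p under 0.05 (-1.19, adjusted p = 0.308), where 6.75% of all genes were lower at that p. Without control D0 replicate 5 and exposed D28 replicate 1 the medians at D0 and D28 were -0.14 and 0.08. Without control D0 replicate 3 as well, the D0 median was 0.18, with 4 members higher and 2 lower, and the filtered-air median was 0.04. The direction of the fast skeletal genes between groups thus turned on which of these arrays were kept. In the fast skeletal genes the exposed D0 arrays, a group that held none of these 3, ranged over 6.15 to 7.03 for Tnnt3 and 7.34 to 8.02 for Acta1.

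Slow skeletal genes followed these arrays in part. Tnnt1, the slow-fibre troponin T, read 10.71 on control D0 replicate 5 and 10.24 on exposed D28 replicate 1, against 8.10 on control D0 replicate 3 and 6.92 to 8.25 on the rest. Its exposed D0 arrays read 7.37, 7.19, 7.23, 7.85 and 7.44. Mybpc1, the slow myosin-binding protein, was well above background on those 2 arrays alone, at 5.07 and 4.13. Tnni1, the slow inhibitory troponin, did not follow them: it read 7.43 and 6.65 there, and 8.84 on control D0 replicate 1, and it ranged from 2.79 to 8.84 (median 5.91) in control D0, 3.66 to 7.85 (median 5.90) in control D28 and 1.82 to 7.68 (median 5.48) in exposed D28 rats, with exposed D0 arrays at 4.68, 4.10, 4.48, 7.68 and 8.13.

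Members common to heart and skeletal muscle were split. In 2 of the 7 shared by heart and slow muscle, Myl3 and Myl2, and in 1 of the 9 shared by all striated muscle, Ckm, control D0 replicate 5 and exposed D28 replicate 1 held the top places. Myl3, the ventricular and slow light chain, was well above background on 3 arrays, at 8.12 on control D0 replicate 5, 7.71 on exposed D28 replicate 1 and 4.69 on control D0 replicate 3, against 1.62 to 3.66 elsewhere. Myl2 read 8.19 and 7.67 on the first 2 of these arrays and at most 6.45 on any other. The muscle creatine kinase Ckm, which buffers ATP, read 10.62 and 10.51 there and 7.05 to 9.23 on the arrays other than control D0 replicate 3. In exposed D0 rats Ckm read 7.84, 7.61, 8.28, 7.33 and 8.24, and its log2 FC was -0.74 at D0 (adjusted p = 0.735) and 0.04 at D28. In the other 13 shared members these arrays were not both on top. With group means removed, the r with Tnnc2 over 23 arrays, given as a description, was 0.97 for Myl3, 0.91 for Ckm and 0.75 for Myl2. Tnnc2 was chosen after its values were seen, and the arrays on which it stood apart enter these r values. The r with Tnnc2 without those arrays is not given here. The other shared members spanned a wide range of r without a clean split. It was 0.74 for Mb, 0.65 for Ckmt2, 0.59 for Tnnc1, 0.57 for Ldb3, 0.51 for Myh7 and 0.48 for Tcap. Ttn gave 0.44, Myoz2 0.38 and Actn2 0.28. The lowest were 0.05 for Csrp3, 0.08 for Ankrd1, 0.12 for Sln and 0.18 for Smpx, a small protein of striated muscle.

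Cardiac members did not share the order in full. Control D0 replicate 5, exposed D28 replicate 1 and control D0 replicate 3 had median ranks of 4, 13 and 13 among 23 arrays over the 13 cardiac members. Control D0 replicate 5 was thus among the higher arrays, and it ranked 1 in the mean of the 45 other cardiac genes (6.42). Exposed D28 replicate 1 ranked 12 there (6.10), the highest of its group. In the mean of the cardiac members it read 7.82, within its group range of 7.64 to 7.86. For Myl7 exposed D28 replicate 1 read 8.83, the lowest of its group, while for Tnnc2 it was the highest of all arrays. For Actc1 exposed D28 replicate 1 read 12.15, within the group range of 11.85 to 12.33, and for Myh6 (12.17), Myl4 (9.42) and Hrc (6.95) it was the highest of its group.

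The spread within groups also differed between the classes, and much of that of the fast skeletal genes lay in the arrays that stood apart. Those arrays were picked for their high fast skeletal values. A smaller spread of that class without them therefore follows from the choice and is given as a description. The median SD within groups was 1.43 for the fast skeletal members, 0.96 for the slow, 0.39 for those of all striated muscle and 0.29 for the cardiac members, against 0.32 for all genes tested. Of 43 members, 13 were in the top 5% of all genes by this SD, 10 of them fast skeletal and 0 cardiac. Without the 3 arrays high in skeletal genes the medians were 0.50 for the fast and 0.54 for the slow skeletal members, 0.37 for those of all striated muscle and 0.30 for the cardiac members, against 0.33 for all genes, and 3 members were in the top 5%, 2 of them fast skeletal. For Actn3 the SD fell from 1.43 to 0.37 and for Tnni2 from 1.15 to 0.25, while Myh2 went from 1.70 to 1.54. Over all 23 arrays the highest were Myh1 (1.95), Myl1 (1.78) and Myh2 (1.70) among fast, Tnni1 (1.89), Tnnt1 (0.96) and Mybpc1 (0.89) among slow, and Myl3 (1.84), Myl2 (1.00) and Myoz2 (0.41) among those of heart and slow muscle. In the class of all striated muscle they were Ckm (0.93), the giant spring protein titin (Ttn, 0.55) and the Z disc actinin Actn2 (0.42), and in the cardiac class Mybpc3 (0.45), Ryr2 (0.42) and Nppa (0.40).

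Ttn read 5.89, 5.12, 6.13, 5.05 and 4.64 and Actn2 5.76, 4.93, 4.79, 5.54 and 5.67 in exposed D0 rats. The control D0 ranges were 4.69 to 6.16 (median 5.20) for Ttn and 5.18 to 6.27 (median 5.54) for Actn2, so both genes overlapped between groups. At D28 Ttn ran from 5.11 to 6.11 in exposed and 4.54 to 6.21 in control rats, and Actn2 from 4.53 to 5.52 and 4.63 to 5.70. Ttn was the only member well above background on all arrays with a log2 FC above 0 at D0 (0.11, adjusted p = 0.990), and its probes disagreed in sign at D0.

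**Figure D4:**
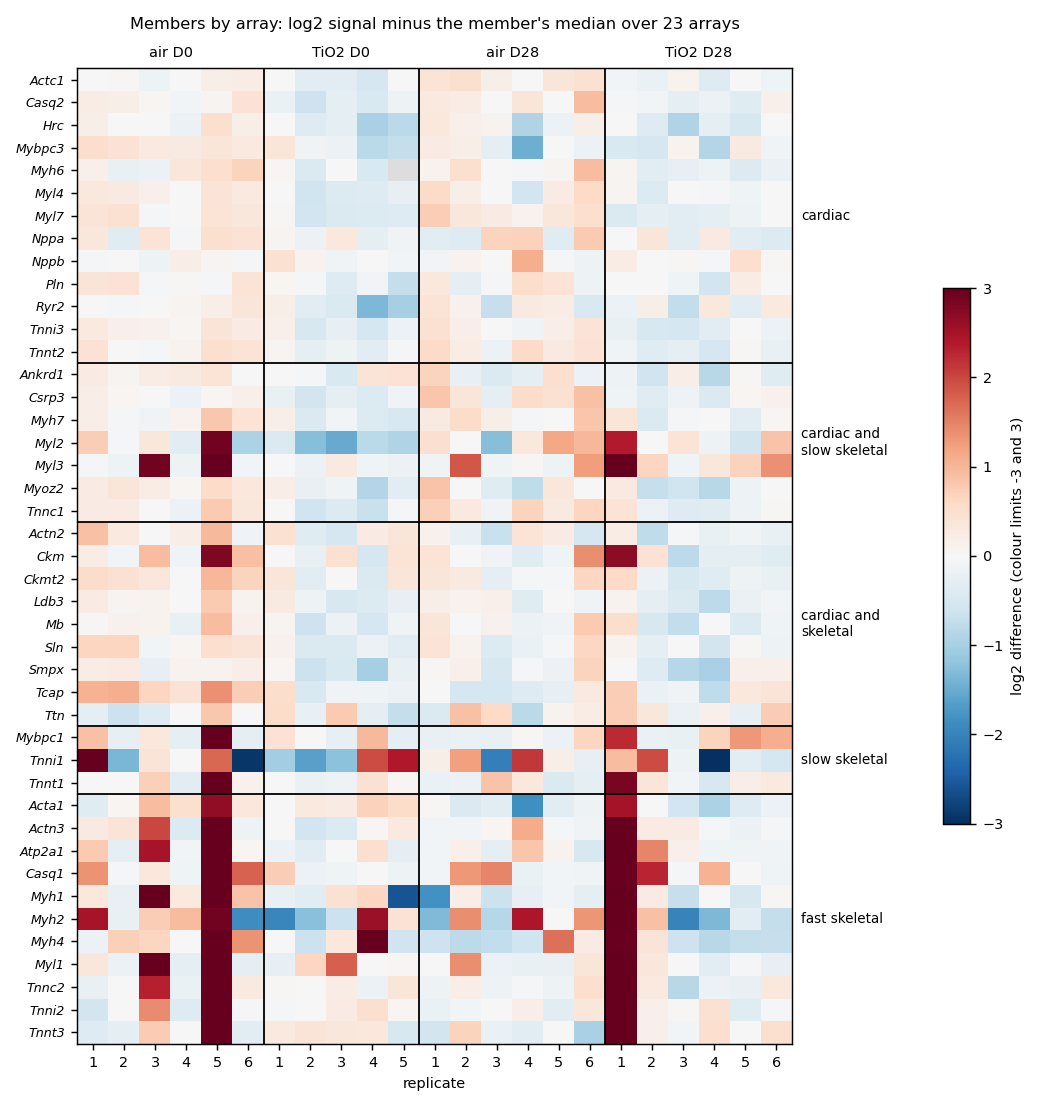
The 43 measured members (rows, grouped by class) on the 23 arrays (columns, by group and replicate), coloured by the difference in log2 signal from the median of that member over all arrays, with colours limited at -3 and 3 and the missing Myh6 value in grey. Control D0 replicate 5 and exposed D28 replicate 1 are dark red across the fast skeletal class, in which they hold the top places for 10 of 11 members, and not in the cardiac class.

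Sln encodes sarcolipin, a brake on the calcium pump in atrial and skeletal muscle. Its exposed D0 arrays read 6.72, 6.15, 6.14, 6.41 and 6.26 against 6.50 to 7.22 (median 7.02) in controls, a log2 FC of -0.60 (adjusted p = 0.0817), and the D28 value was -0.21. Its probes overlap on opposite strands, at chr8:57318467-57318526 (plus) and chr8:57318485-57318544 (minus) of rn4, and at D28 they differed in sign, at -0.52 and 0.10. A value for Sln is therefore a mean over probes for both strands.

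How far genes moved together from array to array was read in 14 pairs named by isoform, over 23 arrays unless stated, with permutation p-values adjusted over the 14. The pairs were chosen with earlier results of these data known. Myl7 rose and fell with other cardiac genes. Pearson's r was 0.79 with Myl4 (permutation p = 1e-05, the smallest that the permutations can give, adjusted p = 7e-05; Spearman's rho 0.82). It was 0.80 with Actc1 (adjusted permutation p = 7e-05, rho 0.77), 0.78 with Tnnt2 (adjusted permutation p = 0.000187, rho 0.76) and 0.63 with Myh6 over 22 arrays (adjusted permutation p = 0.00616, rho 0.65). Without control D28 replicate 1 and exposed D0 replicate 2, the arrays farthest from the Myl7 median, these were 0.72, 0.75, 0.74 and 0.64.

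The permutations ran over the arrays of all groups, so a difference between groups enters these p-values. The r values were smaller within groups, where no p was computed. With group means removed, r was 0.70 with Myl4, 0.53 with Actc1, 0.46 with Tnnt2 and 0.24 with Myh6. Within the slides of 6 and 7 arrays it was 0.85 and 0.95 for Myl4, 0.79 and 0.74 for Actc1, 0.75 and 0.97 for Tnnt2 and 0.36 and 0.81 for Myh6. Both slides held arrays of all 4 groups, so a difference between groups enters these r values as well. For Ryr2 the r of 0.48 (adjusted permutation p = 0.0473, rho 0.45 with an adjusted p of 0.0682) did not hold within slides, where it was -0.51 and 0.93.

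Pairs of a cardiac and a skeletal isoform did not pass the test. Between Myl7 and Myh2 r was 0.05 (adjusted permutation p = 0.874), between the actins Actc1 and Acta1 -0.10 (adjusted permutation p = 0.781), and between Actc1 and Myh2 -0.03 (adjusted permutation p = 0.907). Nor did the pair of Actc1 and Acta2, the smooth muscle actin, which ranged from 8.53 to 9.29 in control D0 rats (r 0.16, adjusted permutation p = 0.652). Myl7 gave r values of 0.34 with the ventricular light chain Myl2 (adjusted permutation p = 0.182) and 0.14 with Nppa, which lay at background. Myh2 and Myh4 gave an r of 0.53 (adjusted permutation p = 0.0265, rho 0.46 with an adjusted p of 0.0682), which rested on control D0 replicate 5 and exposed D28 replicate 1, since it was 0.28 without them. Myh2 with Tnnt3 (0.43) and with Acta1 (0.38) did not pass, and both fell to -0.10 and -0.06 without those arrays.

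**Figure D5:**
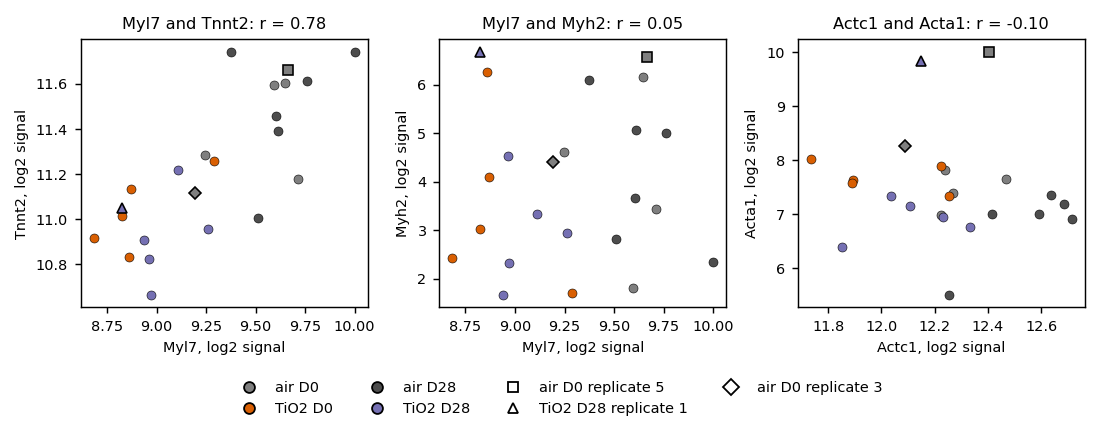
Log2 signals of Myl7 and Tnnt2, Myl7 and Myh2, and Actc1 and Acta1 (1 pair per panel, 1 gene per axis), with each point an array coloured by group. Tnnt2 follows Myl7 (r 0.78), while Myh2 does not follow Myl7 (r 0.05) and Acta1 does not follow Actc1 (r -0.10), with the arrays high in skeletal genes marked by square, triangle and diamond.

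The genes most like Myl7 after removal of group means, over 23 arrays and given as a description, included the members Tnni3 (r 0.75), Sln (0.71) and Myl4 (0.70). Outside the members they were LOC102546433 (0.82), Mybphl (0.81), LOC103692215 (0.81, well above background on 0 arrays), Nr2c2ap (0.78), Calr3 (0.72), Gpi (0.70), Polr1c (0.70), Ccdc33 (0.69), Kif9 (0.69) and Rfxank (0.69). Mybphl encodes a myosin-binding protein of the atrium. For Myh2 the nearest members were Tnni1 (0.77) and Atp2a1 (0.66), and the nearest of the other genes was Myh8 (0.83), a perinatal heavy chain, followed by Cbx2 (0.72), Esr2 (0.71), Sypl2 (0.71), LOC102547478 (0.69), LOC102556057 (0.68), Cacng1 (0.67), LOC498601 (0.66), Phlpp2 (0.66) and Atcay (0.66). Esr2 and LOC498601 were well above background on no array.

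Promoters of the members were searched for the letters of 5 known muscle motifs on both strands, in RefSeq windows of the GRCr8 build from 250 bases before to 50 after each gene start, which 37 of the 44 members had. A CArG box, the element bound by serum response factor, was present in 5 of 37 members (13.5%) and in 548 of 33469 windows of all genes (1.64%). The 5 sites are shown because they fall in both the cardiac and the skeletal classes, on the strand of the gene with the motif in capitals and 10 bases on each side.
Actc1, chr3:121271806-121271835: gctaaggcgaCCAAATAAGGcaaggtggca
Acta1, chr19:68784269-68784298: tgcccaacacCCAAATATGGcttgggaagg
Myl3, chr8:119616987-119617016: gagccaatgcCCTTTTATGGccctgtccct
Myh4, chr10:52422020-52422049: aaagagattgCCAAAAATGGttttgccaag
Ldb3, chr16:9924712-9924741: gggttacagtCCATTTATGGgcgcagcaag
The Acta1, Myl3, Myh4 and Ldb3 motifs began 94, 97, 118 and 52 bases before the gene start, and that of Actc1 lay just after it. The MEF2 site was in 8 of 37 members (21.6%) against 1.87% of all windows, CAGCTG in 16 (43.2%) against 15.1%, CATTCC in 8 (21.6%) against 14.2%, and GATAA in 10 (27.0%) against 26.5%. Myl7 was not among the members with a CArG box or a MEF2 site in this window. These matches describe letters only, and no binding was measured.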

How the data were processed

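RNA of the accessory lobe was hybridised to one-colour Agilent rat arrays, 1 array per rat. The authors deposited the scanner output of each array, whose intensity values had been background-corrected by Agilent Feature Extraction (version 11.0.1.1 for 22 arrays and 12.0.1.1 for 1, per the file headers), and log2 values over all arrays that they had normalised, in 1 file. The scanner intensity values were used as the main values and the log2 values that the authors deposited as an alternative. Spots marked as outliers and control spots were left out. The remaining intensities were taken as log2 and quantile normalised between arrays, as the authors did. A probe was kept where its signal exceeded the 95th percentile of the negative controls on at least 5 arrays, which 40420 of 45598 probes did, 32418 of them with a gene symbol. A gene was the mean of its probes, missing on an array where any probe was missing, and needed 3 values per group. 49 of 23060 genes had a missing value.

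Groups were compared with limma 3.58.1 (R 4.3.3, data.table version 1.17.8) in 1 model over the 4 groups, with 19 residual degrees of freedom and Benjamini-Hochberg adjustment over all genes. A gene was called at an adjusted p under 0.05 and an FC of at least 1.5. SEs and 95% intervals are those of limma. The contrasts were exposed against control at D0 and at D28, the change in that effect, and D28 against D0 in filtered air and in exposed rats. Correlations over arrays used 100000 permutations, two-sided, in Python 3.11.15 with numpy 2.4.6 and pandas 2.3.3. Figures were drawn with matplotlib 3.10.9. The fit was tested on simulated data. The number of arrays limits the precision.

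The members, the classes, the 14 pairs and all marker lists were chosen with earlier results of these data known. Values per array were given for Actc1 and Myh2, for each member called in any contrast, for the 3 members of each class with the highest SD within groups and for the genes of the 14 pairs. Outside the members, the 10 genes most like Myl7, the 10 most like Myh2 and called genes of the marker lists were named. Some genes of the list of other cardiac genes are not reported here. Those lists were other cardiac and other skeletal genes, smooth muscle, mesothelium, fat, squamous oesophagus and lung epithelium. Alternatives were the authors' deposited values, scaling to the 75th percentile or cyclic loess in place of quantiles, background correction by normexp (offset 50), other filters on dim probes, the brightest probe of a gene, array weights, slide or replicate number as a block, no FC limit, fits on 2 groups alone and leaving out each array. Leaving out the 2 or 3 arrays with the highest fast skeletal signals was added after seeing the data. Whether the replicate numbers pair the samples was not settled. Deviations from the group means correlated over 0.1 in 0 of 5 same-numbered pairs at D0 and in 3 of 6 at D28 (0.36, 0.26 and 0.46). Differently numbered pairs were not compared.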

Additional observations from a re-analysis of the deposited data

Results flagged for a closer look

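Within each group of 5 or 6 arrays, a member was listed here where its highest or lowest array lay further from the nearest other array than Dixon's 95% criterion allows. This held for 29 of 172 tests (16.9%), where the nominal rate of the criterion is about 1 in 20. The tests were not independent, since members vary together on the same arrays, and 13 of the 29 were on exposed D28 replicate 1. The share over all genes was not computed, so an excess over chance was not tested.

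Most of these were high values on the arrays named in the report. Exposed D28 replicate 1 was the highest of its group for Myh1 (10.66), Myh4 (5.52), Myl1 (7.65), Myl3 (7.71), Acta1 (9.84), Tnnt1 (10.24), Tnnt3 (9.98), Tnni2 (10.97), Tnnc2 (11.66), Ckm (10.51), the mitochondrial creatine kinase Ckmt2 (9.70), Atp2a1 (11.24) and Actn3 (10.45). Control D0 replicate 5 was the highest of its group for Tnnt1 (10.71), Tnnt3 (9.83), Ckm (10.62), the oxygen store myoglobin (Mb, 11.19), Mybpc1 (5.07) and the Z disc protein Ldb3 (7.82).

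The remaining values stood apart on other arrays. Myh4 was high on exposed D0 replicate 4 (5.66), Actn3 on control D28 replicate 4 (6.65) and Nppb on control D28 replicate 4 (2.95). Myl1 on control D28 replicate 2 (3.44), Mybpc1 on control D28 replicate 6 (2.55) and Casq1 on exposed D0 replicate 1 (2.64) were high within their group and not well above background. Acta1 on control D28 replicate 4 (5.50), Mybpc3 on control D28 replicate 4 (4.89), Tnnt3 on exposed D0 replicate 5 (6.15) and Smpx on control D0 replicate 3 (6.48) were low. Control D28 replicate 4 was the only array on its slide. It had the highest 75th percentile of the signal (3470) and the highest share of probes well above background (77.9%). The part of this in its listed values was not tested.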

How the results depend on the processing

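The number of members called at D0, 2 as reported, was 1 with 75th percentile scaling, with normexp, with the deposited table, with slide as a block and with the replicate block, 5 with array weights, and, in settings chosen after seeing the data, 0 without the 2 arrays highest in fast skeletal genes and 1 without 3. At D28, also 2, it was 0 with normexp and with the 2 groups alone, 1 with the deposited table, array weights and slide as a block and without the 2 or the 3 arrays, and 5 with no FC limit. For D28 against D0 in filtered air, 1 as reported, it was 0 with the brightest probe and without the 3 arrays. Leaving out each array in turn gave 0 to 3 members at D0 and at D28, 1 to 1 in filtered air, 0 to 0 for the other contrasts, and 4 to 8 correlated pairs where 6 were reported. The replicate block changed no other count of members called beyond 1.5 times. Signs turned at D28 for Myh2 with array weights (0.21), Ryr2 with slide as a block (0.013) and Mybpc3 without the 2 or 3 arrays (0.020). With 1 array left out Mybpc3 spanned -0.26 to 0.10 and Ryr2 -0.20 to 0.066. Weak correlations turned as well. With group means removed r was -0.24 for Myl7 and Nppa, -0.29 for Myl7 and Myh2, 0.24 for Actc1 and Acta1 and -0.025 for Actc1 and Acta2. With slide means removed r was 0.0039 for Actc1 and Acta1 and 0.0076 for Actc1 and Myh2. Without the 2 farthest arrays r was 0.0011 for Actc1 and Acta1, -0.12 for Actc1 and Acta2, 0.056 for Actc1 and Myh2, -0.10 for Myh2 and Tnnt3 and -0.065 for Myh2 and Acta1, and without the 2 or 3 arrays these last were -0.10 or -0.16 and -0.065 or -0.12. With 1 array left out r spanned -0.026 to 0.28 for Actc1 and Acta2, -0.10 to 0.12 for Actc1 and Myh2 and -0.028 to 0.17 for Myl7 and Myh2. The cause of these changes was not tested.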

Other observations

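Tnnc2 was chosen after its values were seen, as the fast skeletal member with the highest values on the arrays that stood apart. With group means removed, 10 of the 20 genes most like it over 23 arrays were members, led by Myl3 (r 0.97), Tnni2 (0.97), Myl1 (0.95), Actn3 (0.95) and Atp2a1 (0.94). Outside the members, Mylpf (0.96), the fast regulatory light chain, and Pvalb (0.91), the calcium buffer of fast fibres, were among them.

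Markers of fat, squamous oesophagus and lung epithelium held no called gene between exposed and control rats, unlike those of mesothelium at D0. Of 10 fat genes 0 were called at D0 and 0 at D28 by limma (1 higher and 1 lower at an unadjusted p under 0.05 at D0, 0 and 0 at D28), and of 7 genes of squamous oesophagus 0 and 0 (1 higher at each time). Of the 10 lung epithelial genes 0 and 0 were called (3 higher and 1 lower at D0, 2 and 2 at D28), with median log2 FC of -0.05 and -0.13.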
